A study of Bos taurus with 96 samples.

Results

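The subject here is a set of 4 chemokine genes, CCL3 (ENSBTAG00000025250), CCL4 (ENSBTAG00000025257), CCL21 (ENSBTAG00000010161) and CXCL10 (ENSBTAG00000001725), taken by identifier from the 24616 genes counted in each library. They were followed in liver and skeletal muscle of Holstein cows at late pregnancy (LP), early lactation (EL) and mid lactation (ML). By the study's account, EL biopsies were taken on average on the day after calving, and ML biopsies months later. The same 16 cows were biopsied at all 3 time-points, 8 with high genetic merit for fertility (Fert+) and 8 with low merit (Fert-), which gave 96 polyA RNA-seq libraries. Liver was taken by percutaneous punch and muscle as a core of the semitendinosus. Both genotypes mixed first and second parity cows, were kept as 1 herd, and stayed unbred during the lactation sampled. There was no untreated group, and each cow served as its own reference over time.

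Chemokines are small secreted proteins that steer leukocytes along gradients by binding receptors on their surface. CCL3 and CCL4, the macrophage inflammatory protein pair, are released by activated macrophages, lymphocytes and neutrophils and draw in monocytes and T cells. CCL21 is made by lymphatic endothelium and lymphoid stroma and guides CCR7-bearing dendritic and naive T cells, whereas CXCL10 is induced by interferon and attracts CXCR3-bearing T and NK cells. In the RefSeq annotation of the ARS-UCD2.0 assembly, CCL3 and CCL4 lie on the same chromosome with 1 gene between them, and the other two lie elsewhere. CCL3 and CCL4 are related copies, so a read pair that fits both could be lost or misplaced in counting.

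Total counts ran from 14966847 to 26358063 in liver and from 15279337 to 22018740 in muscle. Levels are given as CPM, counts scaled to the library total with TMM factors of each tissue and not corrected for gene length. Values are therefore compared between samples of a tissue and not between genes. CPM of liver and muscle set side by side were scaled separately, while the fitted tissue differences come from joint fits. The labelled tissues were checked against their markers. The summed level of 7 hepatocyte genes was 62855 to 190945 CPM in liver and at most 153 CPM in muscle, and muscle fibre genes summed to no more than 0.485 CPM in any liver library. In 13 libraries spread over both tissues, 19 genes that were near 0 elsewhere carried counts, and results are given with and without these libraries where it matters. In bulk tissue, fewer cells of a type and less RNA per cell cannot be told apart.

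All 4 chemokines were readily counted in liver, while muscle held CCL21 and some CXCL10 but almost no CCL3 or CCL4. CCL3 in liver had a median of 1.05 CPM at LP, 1.19 at EL and 1.82 at ML. In muscle its counts did not exceed 3 in any of the 48 libraries, and summed to 9, 7 and 7 over the 16 libraries of LP, EL and ML, with exact 95% Poisson intervals of 4.12 to 17.1, 2.81 to 14.4 and 2.81 to 14.4 that cover counting error only. CCL4 in liver had medians of 3.28, 3.32 and 5.95 CPM against 0.0915, 0.0419 and 0.123 CPM in muscle. Every liver library was thus above every muscle library for both genes. The log2 difference between liver and muscle for CCL3 amounted to 4.59 ± 0.37 (SE, n = 16 cows) at LP, 5.97 ± 0.37 at EL and 5.80 ± 0.31 at ML. For CCL4 it was 4.39 ± 0.25, 6.70 ± 0.32 and 5.40 ± 0.22. These values rest on muscle counts near 0 and depend on how such counts are smoothed. Both genes had enough counts for this test only through liver.

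CXCL10 was also higher in liver, by 3.16 ± 0.33, 4.21 ± 0.24 and 3.98 ± 0.30 on the log2 scale at LP, EL and ML. CCL21 went the other way. Its muscle medians of 2.84 CPM at LP and 2.25 CPM at EL compared with 1.10 and 1.21 CPM in liver, a log2 difference of -1.25 ± 0.26 (edgeR adjusted p = 0.000139) and -1.12 ± 0.34 (adjusted p = 0.00441). At ML the tissues had medians of 2.01 CPM (liver) and 2.28 CPM (muscle), and the log2 difference was -0.09 with a 95% interval of -0.52 to 0.35 (adjusted p = 0.719). The edgeR quasi-likelihood test, adjusted over all genes by the Benjamini-Hochberg method, thus called 4, 4 and 3 of the 4 chemokines between tissues at a threshold of 0.05, where it called 88.9%, 85.9% and 89.1% of all genes.

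**Figure D1:**
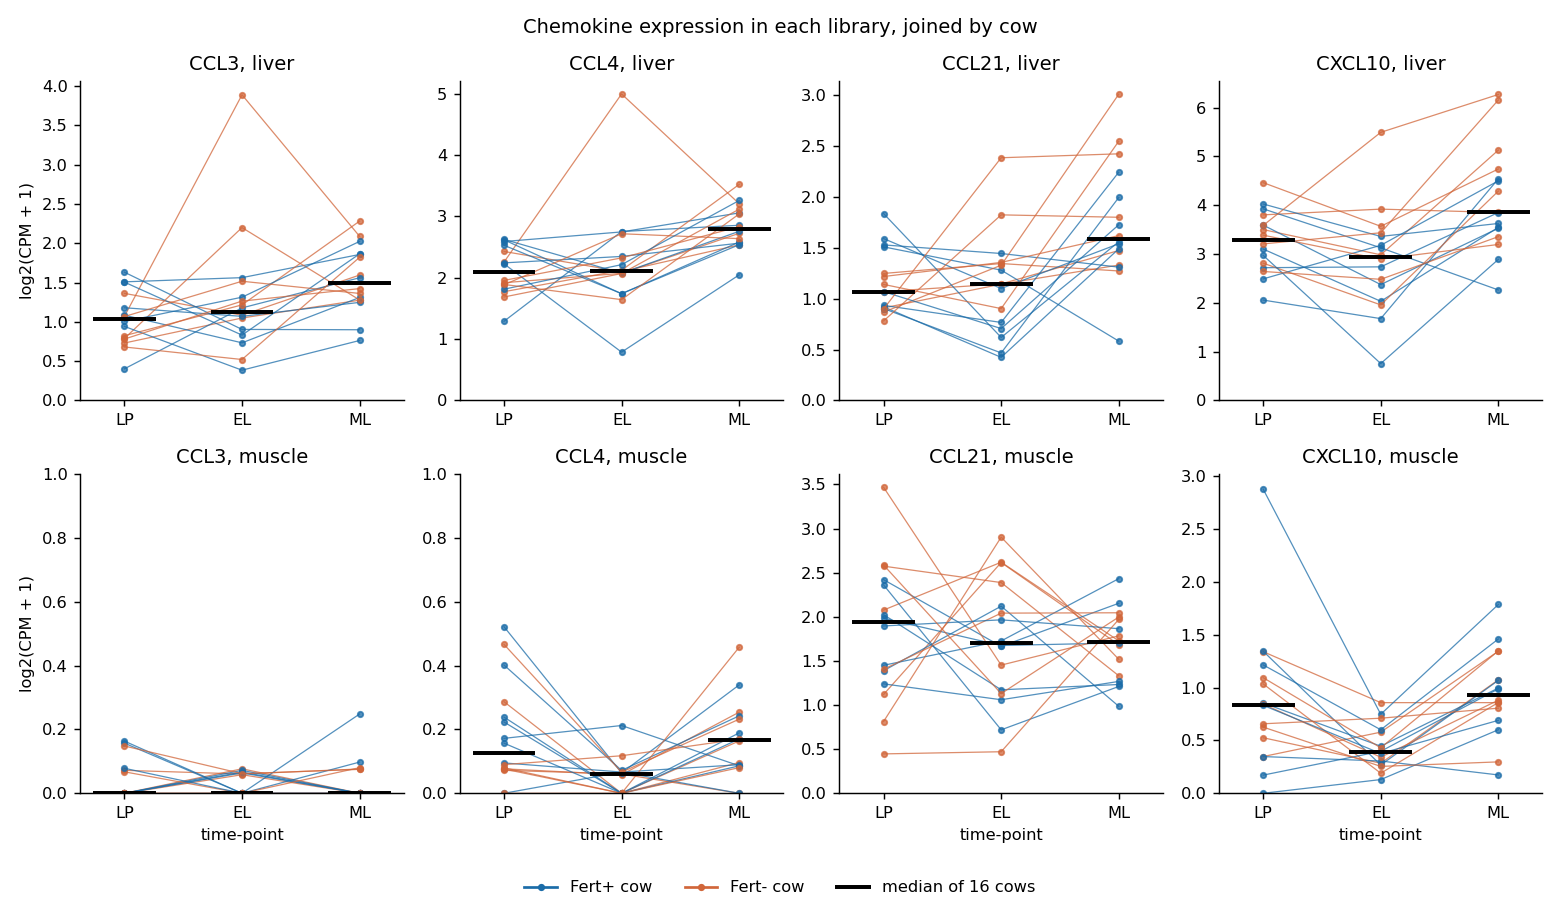
Expression of the 4 chemokines in each of 96 libraries as log2(CPM + 1), with liver above and muscle below, the time-points LP, EL and ML on the x axis, 1 line per cow coloured by genotype, and black bars for the median of 16 cows. In liver most cows rose toward ML, with 1 cow far above the rest at EL for CCL3 and CCL4 (13.8 and 31.0 CPM), while muscle CXCL10 dipped at EL.

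In liver, CCL4, CCL21 and CXCL10 were all higher at ML than at EL, and the same 3 were higher at ML than at LP. No chemokine passed the test between LP and EL, where 2927 genes had an unadjusted p below 0.05 and DESeq2 called 895. Each cow was kept as a block in these fits. Of all genes, 2.40% were called for EL against LP, 41.6% for ML against EL and 15.2% for ML against LP, beside 0, 3 and 3 of the 4 chemokines. The median log2 fold change of the 4 chemokines was 0.05, 0.85 and 0.89, compared with 0.01, -0.00 and 0.00 over all genes tested. The 3 comparisons share libraries and are not independent of each other.

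CXCL10, the interferon-induced CXCR3 ligand, had the largest fitted change of the 4 in liver from EL to ML, though not from LP to ML. It ranged from 3.16 to 21.1 CPM at LP (median 8.85), from 0.687 to 44.1 at EL (median 6.67) and from 3.80 to 76.2 at ML (median 13.4). The ranges overlapped widely, and cow 982 was highest at both EL and ML. Within cows it was higher at ML than at EL in 14 of 16, by 1.47 ± 0.30 on the log2 scale (2.77-fold, adjusted p = 0.000329). An exact sign-flip permutation test on log2(CPM + 1) of the same 16 cows gave a two-sided p of 0.000397. Relative to LP, ML was higher by 0.94 ± 0.30 (adjusted p = 0.0303) in 11 of 16 cows, a call lost on leaving out any of 6 cows and without the 13 libraries (0.91, adjusted p = 0.0796). The difference between EL and LP was -0.53 with a 95% interval of -1.11 to 0.05 (adjusted p = 0.296).

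CCL21, the CCR7 ligand, ranged from 0.718 to 2.57 CPM in liver at LP (median 1.10), from 0.341 to 4.22 at EL (median 1.21) and from 0.498 to 7.05 at ML (median 2.01). The highest values lay at ML, with low cows still present there. The rise from EL to ML was 1.04 ± 0.29 on the log2 scale (2.06-fold, adjusted p = 0.00498), in 12 of 16 cows, and without the 13 libraries it was 0.88 (adjusted p = 0.0550). From LP to ML it was 0.95 ± 0.29 (adjusted p = 0.0249), again in 12 of 16 cows. That call was lost without cow 426 (0.80), cow 829 (0.86) or the 13 libraries (0.74, adjusted p = 0.172). Between LP and EL the fitted change was -0.09, with a 95% interval of -0.67 to 0.49.

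CCL4 ranged from 1.45 to 5.17 CPM in liver at LP (median 3.28), from 0.726 to 31.0 at EL (median 3.32) and from 3.13 to 10.5 at ML (median 5.95). Nearly all cows sat higher at ML than at LP, and a single EL library lay far above all others. ML exceeded LP by 0.84 ± 0.25 on the log2 scale (1.79-fold, adjusted p = 0.0206) and was higher in 14 of 16 cows (exact sign-flip permutation p = 0.000458). Without cow 426 the adjusted p was 0.0574. ML exceeded EL by 0.66 ± 0.25 (adjusted p = 0.0334), also in 14 of 16 cows. This second call was lost without the block on cow (0.33, adjusted p = 0.362), without the 13 libraries (0.64, adjusted p = 0.0759), or on leaving out any of 7 cows.

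CCL3, the partner of CCL4, passed the test in none of the 3 liver comparisons. It ranged from 0.321 to 2.10 CPM at LP (median 1.05), from 0.306 to 13.8 at EL (median 1.19) and from 0.696 to 3.86 at ML (median 1.82). The LP and ML groups overlapped, though 14 of 16 cows were higher at ML. The fitted change from LP to ML was 0.84 ± 0.30 (adjusted p = 0.0547), just short of the threshold, and DESeq2 gave 0.83 with an adjusted p of 0.0276. The exact sign-flip permutation test gave p = 0.00333 for CCL3 alone. From EL to ML the change was 0.43 with a 95% interval of -0.15 to 1.02 (adjusted p = 0.244). Leaving out cow 164 made it 0.68 (adjusted p = 0.0362).

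The liver of cow 164, a Fert- animal, stood out at EL. It held 229 counts of CCL3 (13.8 CPM, next highest 3.59) and 513 counts of CCL4 (31.0 CPM, next highest 5.75), or 41.8% and 37.1% of the CPM summed over the 16 EL livers. Its CXCL10 was 10.9 CPM, below cows 982 and 1179 (14.1 CPM) and above all other EL livers. The same library had the highest summed level of 5 neutrophil genes (S100A8, S100A9, S100A12, CATHL1 and CATHL2), 282 CPM against a median of 6.64 and a range of 2.34 to 282. It was also highest for 7 interferon response genes at 417 CPM, and ranked second for 5 NF-kappaB response genes at 182 CPM. The interferon sum was not high at EL alone, as the liver of this cow ranked second at LP (348 CPM) and first at ML (242 CPM). Its neutrophil sum was 5.62 CPM at LP and 6.41 CPM at ML. CATHL1 and CATHL2 were at 0 in the median EL liver. The second most neutrophil-rich EL liver, at 116 CPM, belonged to cow 982, which held the highest CXCL10 of that time-point (44.1 CPM, 616 counts, next highest 14.1) and the highest CCL21 (4.22 CPM). Across the 16 EL livers, which share tissue and scaling, Pearson's r with the neutrophil sum was 0.72 for CCL3, 0.71 for CCL4, 0.29 for CCL21 and 0.28 for CXCL10. The pattern was not particular to neutrophil genes. With the sum of 2 B and plasma cell genes r was 0.68, 0.68, 0.56 and 0.64 in the same order. Cows 982 and 164 were also the highest for that sum, at 77.2 and 70.6 CPM against a median of 25.7. Cow 164 was highest for it at LP (97.3 CPM) and ML (74.8 CPM) too, whereas cow 982 then ranked 11 and 16 of 16. With the macrophage sum r was 0.27, 0.10, 0.32 and 0.34, and with the chemokine receptor sum 0.13, 0.10, 0.67 and 0.77. These relations did not hold at every time-point. Across the LP livers r with the neutrophil sum was -0.10, -0.19, -0.14 and -0.22. With the macrophage sum it was 0.67, 0.77, 0.62 and 0.32 there. The part of any cell type in these values was not tested.

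**Figure D2:**
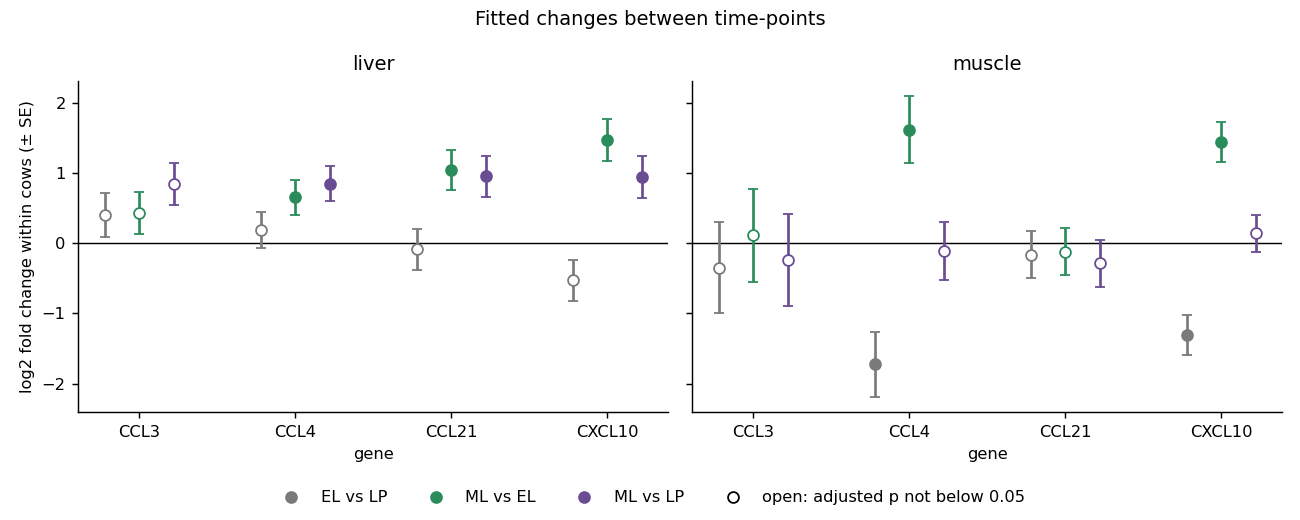
Fitted log2 fold change within cows (y axis, ± SE) for each chemokine and each pair of time-points, with liver at the left and muscle at the right, where CCL3 and CCL4 come from the fit without the low-count filter. Filled points passed an adjusted p of 0.05. In liver the 3 filled ML against EL points (0.66, 1.04 and 1.47) lie above 0, and in muscle CXCL10 and CCL4 fell at EL and rose at ML.

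In muscle, CXCL10 and CCL4 fell from LP to EL and rose again by ML, while CCL21 showed no change that passed the test. Of the 4 chemokines, 2 had enough counts to be kept for the muscle fits (CCL21 and CXCL10). The test called 1, 1 and 0 of them for EL against LP, ML against EL and ML against LP, where 57.4%, 63.0% and 8.98% of all genes were called. CXCL10 ranged from 0 to 6.36 CPM at LP (median 0.788), from 0.0942 to 0.813 at EL (median 0.308) and from 0.128 to 2.45 at ML (median 0.913). The groups overlapped. The EL libraries were lower on the whole, though the highest of them lay above the LP median. CXCL10 changed by -1.30 ± 0.29 on the log2 scale from LP to EL (adjusted p = 0.000225), lower in 12 of 16 cows. It rose by 1.44 ± 0.29 from EL to ML (2.72-fold, adjusted p = 4.54e-05), higher in 15 of 16 cows. ML and LP differed by 0.14 with a 95% interval of -0.37 to 0.65. The highest muscle value, 6.36 CPM at LP in cow 3397, was 106 counts against 1.54 CPM for the next library. Without that cow the LP to EL change was -1.07 and still passed.

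CCL4 was tested in muscle only with the low-count filter removed. The summed counts over 16 libraries were 39 at LP (95% interval 27.7 to 53.3), 12 at EL (6.20 to 21.0) and 33 at ML (22.7 to 46.3). The count in any muscle library was at most 8, and 2, 7 and 2 libraries had none. The fitted change was -1.73 ± 0.47 from LP to EL (adjusted p = 0.00274, lower in 12 cows and higher in 3) and 1.62 ± 0.48 from EL to ML (adjusted p = 0.00501, higher in 13 cows and lower in 3). In that unfiltered fit 37.3% and 42.5% of all genes were called, and 5.77% for ML against LP, where CCL4 differed by -0.11 ± 0.41. CCL3 had too few muscle counts to show any change, with fitted values of -0.35 ± 0.65, 0.11 ± 0.67 and -0.24 ± 0.66.

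CCL21 in muscle ranged from 0.363 to 10.1 CPM at LP (median 2.84), from 0.386 to 6.48 at EL (median 2.25) and from 0.981 to 4.40 at ML (median 2.28). The spread between cows was wide and narrowed toward ML. None of the fitted changes of -0.17 ± 0.33, -0.12 ± 0.34 and -0.29 ± 0.34 passed the test, and the 95% interval of the first ran from -0.82 to 0.49. The values of EL against LP and ML against LP turned in sign without the 13 libraries (0.06 and 0.00), which include the LP library of cow 419 with the highest CCL21.

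Beside these muscle changes, the biopsies differed in their fibre transcripts. The sum of 9 muscle fibre genes had a median of 193129 CPM at LP, 60330 at EL and 221027 at ML, and 9 of 9 such genes fell from LP to EL and 9 of 9 rose from EL to ML, where 57.4% and 63.0% of all genes were called in either direction. Leukocyte lists differed among themselves. CD8B, on cytotoxic T cells and the only T and NK cell gene with enough counts to test, changed by -0.996 and then 0.978 on the log2 scale in muscle, in the direction of CXCL10. Of 4 macrophage genes 0 were called in either comparison, with list medians of 0.10 and -0.48. The neutrophil genes S100A9 and S100A12 moved the opposite way, by 1.39 and 1.22 at EL. Whether these shifts account for any part of the chemokine values was not tested.

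The test of the difference in time course between tissues called CCL4 and CCL21. CCL4 passed the low-count filter of this joint fit only through its liver counts. Its muscle counts summed to 39, 12 and 33 over the 16 libraries of LP, EL and ML, so its value rests on muscle counts near 0. For EL against LP, the change in liver exceeded that in muscle by 1.94 ± 0.60 for CCL4 (adjusted p = 0.0104), with 28.9% of all genes called for this difference. For ML against EL, the change in liver exceeded that in muscle by 1.20 ± 0.45 for CCL21 (adjusted p = 0.0296), with 38.7% of all genes called. The CCL21 difference was 1.08 (adjusted p = 0.0772) without the low-count filter. CXCL10 rose in both tissues from EL to ML, and the difference of 0.07 had a 95% interval of -1.11 to 1.25.

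The genotype comparison asks whether cows of high and low fertility merit differed at a time-point. The study named these 4 genes as lower in Fert+ liver at EL from the same libraries, so their EL liver values describe that choice and are not independent evidence. Medians of CCL3 in EL liver were 0.985 CPM in Fert+ (0.306 to 1.95) and 1.36 in Fert- (0.435 to 13.8). For CCL4 they were 3.42 (0.726 to 5.75) and 3.32 (2.12 to 31.0), and for CCL21 0.666 (0.341 to 1.72) and 1.53 (0.869 to 4.22). CXCL10 stood at 4.93 (0.687 to 9.28) in Fert+ and 8.37 (2.88 to 44.1) in Fert-. The genotypes overlapped for every gene, and only for CCL21 and CXCL10 did 7 of 8 Fert+ cows lie below the Fert- median.

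The fitted difference of Fert+ from Fert- in EL liver was -1.56 ± 0.59 for CCL3 (adjusted p = 0.385), -1.02 ± 0.54 for CCL4 (0.453), -1.10 ± 0.38 for CCL21 (0.379) and -1.30 ± 0.54 for CXCL10 (0.394), with 8 cows per genotype. The quasi-likelihood test called 0 of the 4, as it did 0% of all genes in EL liver, although 1530 of 13047 genes had an unadjusted p below 0.05 and DESeq2 called 12, none of them one of the 4. The study itself used edgeR with a common dispersion, which gives all genes the same spread. An exact test of that kind, with the gene filter used here, called all 4 (adjusted p = 3.33e-05, 0.0150, 0.0175 and 0.000356), with 2.31% of all genes called. Fitting the 48 liver libraries together called CCL3 alone (-1.57, adjusted p = 0.0444), with 2.62% of all genes called. That fit had no block on cow and treated the libraries of a cow as independent, which they are not. Exact permutation of genotype labels on log2(CPM + 1) gave p = 0.135, 0.373, 0.0137 and 0.0740 for CCL3, CCL4, CCL21 and CXCL10.

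Single Fert- cows weighed on these EL differences to unequal degrees. Without cow 164, the fitted value shrank to -0.58 for CCL3 and to -0.05 for CCL4. Without cow 982 it became -0.65 for CXCL10, and for CCL21 it was -0.82. DESeq2 was run with its default replacement of outlying counts, so it need not have kept the counts of cow 164 as they were. With all cows entered, it gave -0.54 for CCL3, -0.05 for CCL4, -1.11 for CCL21 and -1.31 for CXCL10. Without the 13 libraries, the 4 values were -1.49, -1.14, -1.35 and -1.24.

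**Figure D3:**
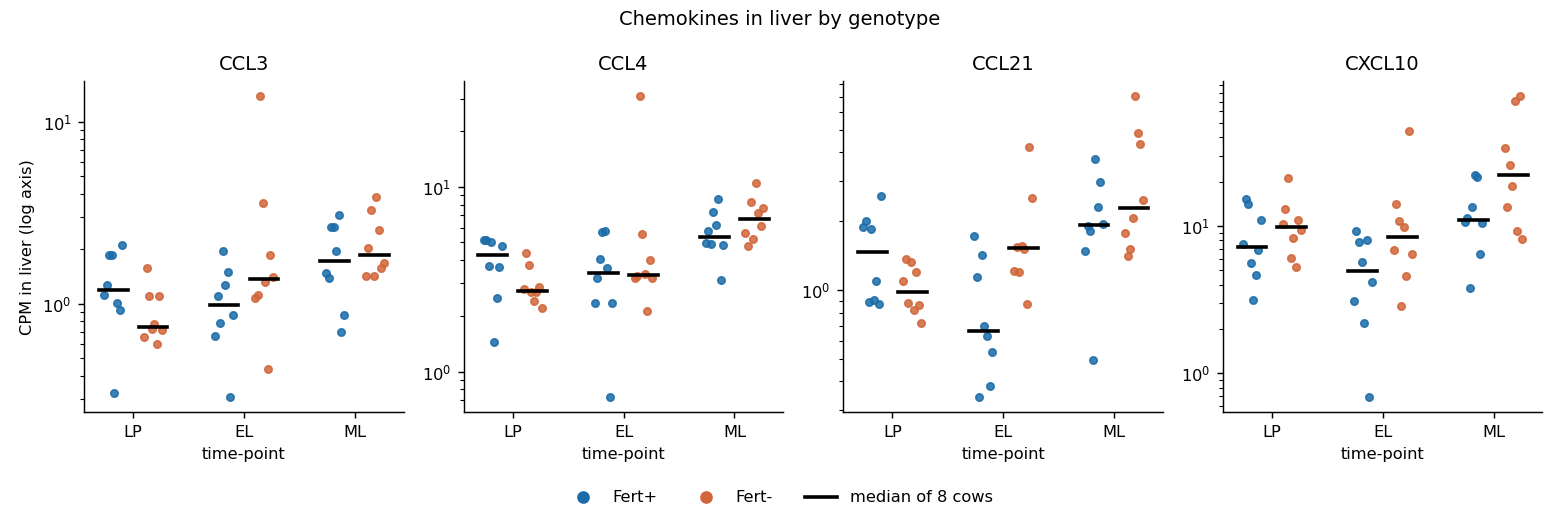
CPM of each chemokine in liver on a log axis at LP, EL and ML, 1 point per cow, Fert+ and Fert- side by side with black bars for the median of 8 cows. At EL single Fert- cows reached 13.8 (CCL3), 31.0 (CCL4), 4.22 (CCL21) and 44.1 CPM (CXCL10) while the genotypes otherwise overlapped.

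At LP the direction was the opposite for 3 of the 4 in liver. Fert+ medians were 1.19, 4.26 and 1.47 CPM for CCL3, CCL4 and CCL21 against 0.748, 2.75 and 0.988 in Fert-, with fitted differences of 0.53 ± 0.30, 0.40 ± 0.22 and 0.54 ± 0.25. CXCL10 at LP differed by -0.30 ± 0.33. At ML the differences were -0.29, -0.29, -0.65 and -1.36 for CCL3, CCL4, CCL21 and CXCL10, the last with medians of 11.02 CPM in Fert+ (3.80 to 22.3) and 22.2 in Fert- (8.17 to 76.2). For CXCL10 at ML, 7 of 8 Fert+ cows lay below the Fert- median (exact permutation p = 0.0569, quasi-likelihood adjusted p = 0.306), and the common dispersion test gave an adjusted p of 4.15e-09. None of these was called by the quasi-likelihood test, which called 0% of genes at LP and 0% at ML in liver, where 842 and 1640 genes had an unadjusted p below 0.05 and DESeq2 called 0 and 77.

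In muscle the genotypes overlapped for all 4 genes as well. The quasi-likelihood test called 0 of the chemokines kept at each time-point and 0% of all genes at LP, 0.00831% at EL and 0% at ML. Unadjusted p values below 0.05 numbered 800, 1426 and 918, and DESeq2 called 27, 157 and 14 genes. CCL21 in EL muscle had a median of 2.18 CPM in Fert+ and 3.68 in Fert-, and a fitted difference of -0.78 ± 0.44 (adjusted p = 0.492). There 8 of 8 Fert+ cows lay below the Fert- median (exact permutation p = 0.219), and the common dispersion test called the gene (adjusted p = 0.0361). CXCL10 in LP muscle differed by 0.79 ± 0.67, and by -0.21 without cow 3397.

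The change from LP to EL in liver was compared between genotypes directly. The EL values for which the study named these genes enter this comparison and that of EL to ML, so neither is independent evidence. CCL21 fell in 8 of 8 Fert+ cows and rose in 7 of 8 Fert- cows, a difference between genotypes of -1.56 ± 0.54 on the log2 scale (adjusted p = 0.311). For CCL3 the difference was -1.66 ± 0.57 (adjusted p = 0.302), for CCL4 -1.05 ± 0.49 and for CXCL10 -0.76 ± 0.59. No chemokine was called, and 0% of all genes were, although 1651 genes had an unadjusted p below 0.05. The change from EL to ML differed between genotypes by 0.76 ± 0.54 for CCL3, 0.28 ± 0.47 for CCL4, 0.63 ± 0.53 for CCL21 and 0.04 ± 0.57 for CXCL10, with 0% of all genes called and 1067 at an unadjusted p below 0.05. In muscle, 0.0158% and 0% of all genes were called for the same comparisons, and neither CCL21 nor CXCL10 was among them, with 1461 and 1122 genes at an unadjusted p below 0.05.

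CCL3 and CCL4 rose and fell together from cow to cow. Over the 16 livers of a time-point, Pearson's r of log2(CPM + 1) came to 0.82 (LP), 0.94 (EL) and 0.81 (ML), with Spearman's rho of 0.81, 0.78 and 0.69. The permutation p of r was 0.00012, 1e-05 (the smallest that 100000 resamples can give) and 0.00018, and the p of rho was 0.00022, 0.00084 and 0.00447. After adjustment over the 21 relations computed, the p of r was 0.00126, 0.00021 and 0.00126. Leaving out the 2 cows farthest from the median CCL3 gave r = 0.73, 0.81 and 0.65, so the relation at EL did not rest on cow 164 alone. Without the 13 libraries, r was 0.87, 0.96 and 0.79.

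CCL4 and CCL21 correlated at LP, with r = 0.71 (rho = 0.67, permutation p = 0.00187 and 0.00561, adjusted p of r = 0.00982), 0.71 without the 2 farthest cows and 0.72 without the 13 libraries. At EL and ML their r was 0.16 and 0.28. CCL21 and CXCL10 gave r = 0.62 at EL (rho = 0.30, permutation p = 0.0137 and 0.258, adjusted p of r = 0.0576), 0.44 without the 2 farthest cows. Of the other relations none passed 0.05 after adjustment, including CCL4 with CXCL10, where r was 0.51, 0.34 and 0.52. Cow 164 was the extreme for the CCL3 and CCL4 pair at EL and cow 982 for the CCL21 and CXCL10 pair.

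**Figure D4:**
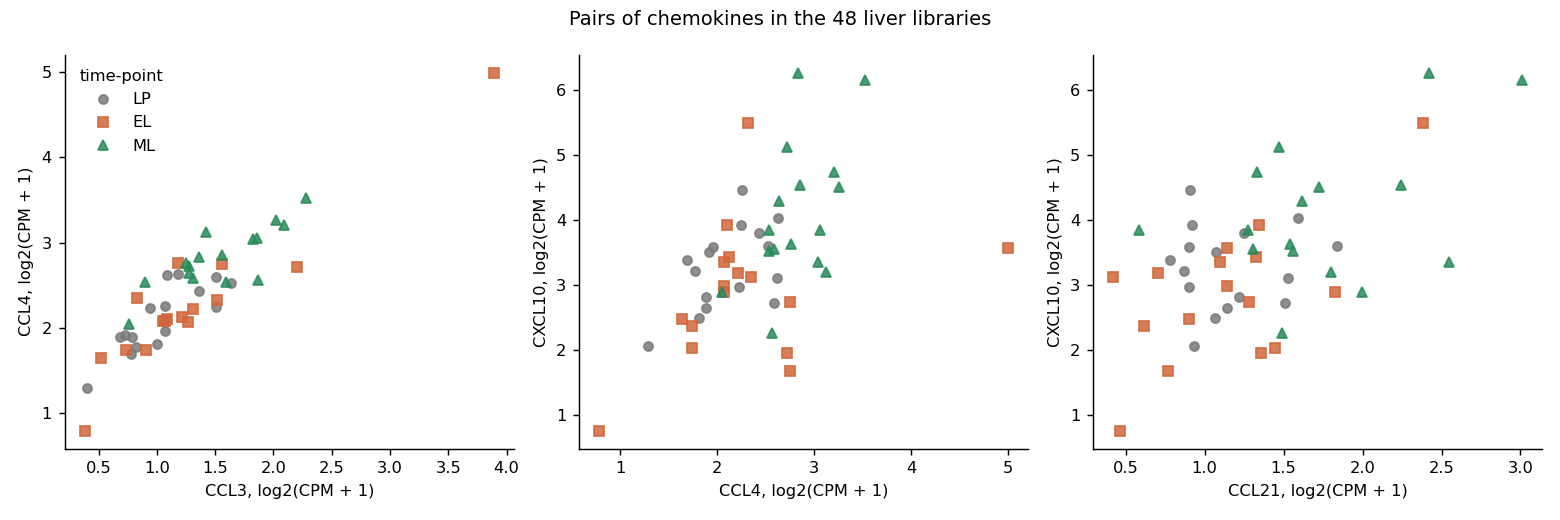
Pairs of chemokines in the 48 liver libraries, each axis in log2(CPM + 1), with symbols for LP, EL and ML. CCL3 and CCL4 lie along 1 band at all time-points (r = 0.82, 0.94 and 0.81), while CXCL10 scatters against CCL4 and CCL21.

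The genes most like each chemokine over the 48 libraries of a tissue, by Pearson's r of log2(CPM + 1), are given as a description. For CCL3 in liver they were CCL4 (0.90), CCL8 (0.79) and PGHS-2 (0.76), and for CCL4 they were CCL3 (0.90), PGHS-2 (0.81) and CCL8 (0.77). CCL8 is another monocyte-attracting chemokine, and PGHS-2 is the inducible prostaglandin synthase. For CXCL10 in liver they were ENSBTAG00000006360 without a symbol (0.88), CXCL9 (0.86), a second interferon-induced CXCR3 ligand, and GBP2 (0.84), an interferon-induced guanylate-binding protein. In muscle they were BOLA-DRA (0.74) and BOLA-DMA (0.73), of the antigen presentation machinery, and CXCL9 (0.73). With time-point means removed, r in muscle was 0.67, 0.69 and 0.76, so that CXCL9 came highest of these 3. CCL21 in liver was most like 3 identifiers without a symbol, with r between 0.69 and 0.71, and in muscle the highest r with any gene was 0.65. CCL21 and CXCL10, at r = 0.57 over the liver libraries and 0.45 with time-point means removed, had r = 0.01 in muscle.

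The wider chemokine system was read from lists of genes, of which 12 of 30 other ligands and 4 of 22 receptors had an identifier paired with a symbol. Most such pairs came from genes the study called between genotypes in these samples, so the lists are not a neutral sample of the system. The receptors CCR1, CCR7 and CXCR3 had no such pair and were not analysed here. Of 10 other ligands tested in liver, 3 passed for ML against EL, which is no higher a share than the 41.6% of all genes called. CXCL9 (1.34 ± 0.36, adjusted p = 0.00397) and CXCL11 (1.60 ± 0.48, adjusted p = 0.00767), which share CXCR3 with CXCL10, were higher at ML. CCL24, an eosinophil attractant, fell by 2.76 on the log2 scale (adjusted p = 0.00143). CCL19, the second CCR7 ligand beside CCL21, differed by 0.29 ± 0.44 and did not pass. CCL2, a monocyte attractant, passed only for ML against LP (0.96 ± 0.33, adjusted p = 0.0468), and no other ligand was called between LP and EL in liver.

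All 3 receptors tested in liver rose from EL to ML, where 41.6% of all genes were called in either direction. They were CXCR4 on leukocytes (0.54 ± 0.20, adjusted p = 0.0255), CCR3 on eosinophils (0.95 ± 0.26, adjusted p = 0.00371) and ACKR4 (1.27 ± 0.24, adjusted p = 0.000169), a scavenging receptor that takes up CCL21 and CCL19. ACKR4 and CXCR4 were also higher at ML than at LP, by 0.79 and 0.68. In muscle, ACKR4 changed by -0.77 and then 0.90, CXCR4 by -0.85 and then 0.78, and CXCL9 by -1.63 from LP to EL (adjusted p = 0.00154). From EL to ML in muscle CXCL9 differed by 0.57 ± 0.48 and 0 of 6 other ligands were called, beside 63.0% of all genes. The list median for other ligands in liver was 0.24 for ML against EL, and the receptors' median was 0.95, compared with -0.00 over all genes.

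**Figure D5:**
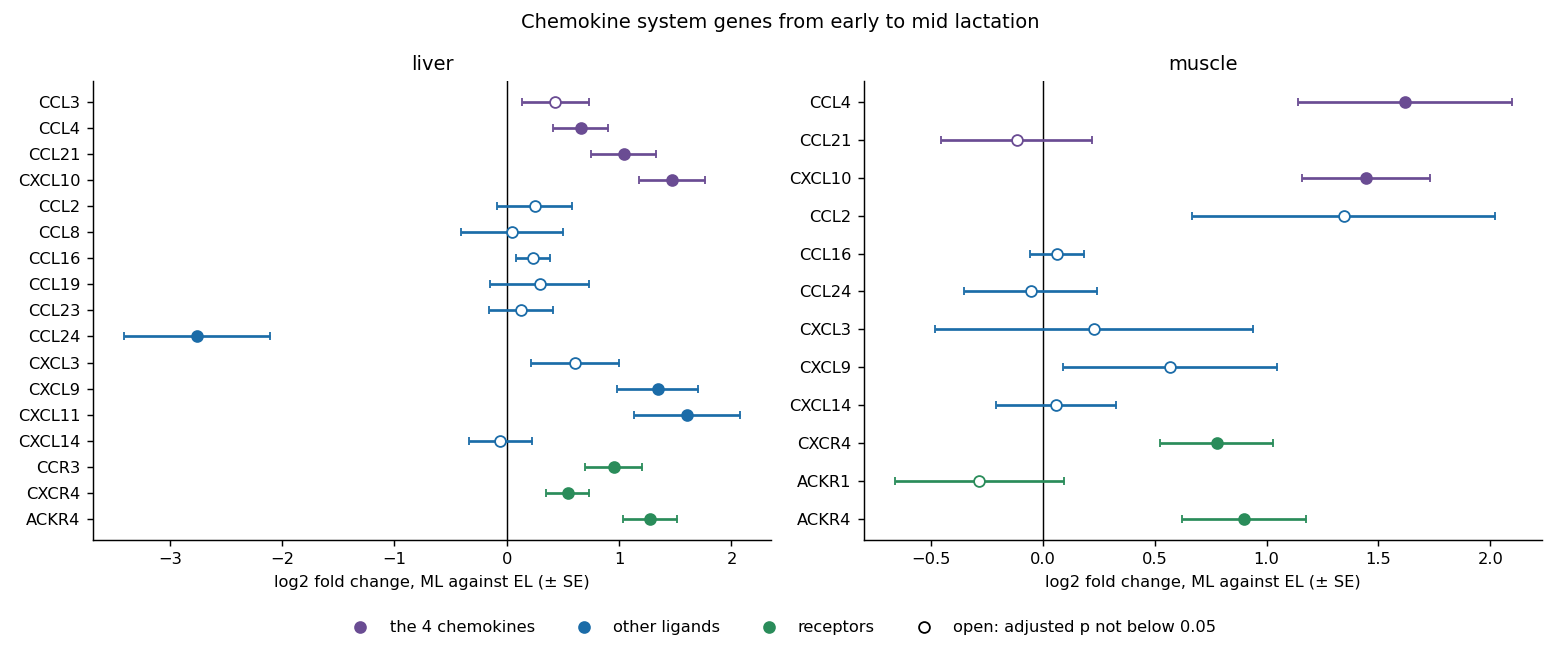
Log2 fold change of ML against EL (x axis, ± SE) for the 4 chemokines, other chemokine ligands and chemokine receptors tested in liver (left) and muscle (right); CCL3 in muscle is not drawn, and CCL4 in muscle comes from the fit without the low-count filter. Filled points passed an adjusted p of 0.05. In liver CXCL9, CXCL10 and CXCL11 lie at 1.34, 1.47 and 1.60, and CCL24 at -2.76.

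Interferon response genes did not move as one in liver between EL and ML. Of 7 tested, GBP2 (0.57), PSMB9 (0.43) and IDO1 (0.67) rose with CXCL10, and ISG15 (-1.09), MX1 (-0.56) and OAS1Y (-0.97), which are antiviral effectors, fell. Of 4 NF-kappaB response identifiers, the 2 that carry the symbol VCAM1 rose. Some leukocyte and vessel markers were also higher at ML, in a comparison that called 41.6% of all genes. All 3 T and NK cell genes passed (CD8B 0.94, CD28 0.75, GZMA 1.17), as did 3 of 5 macrophage genes (C1QA 0.61, C1QB 0.63, C1QC 0.55), 1 of 2 B cell genes (CD79B 0.92) and 2 of 3 blood endothelial genes (VWF 0.71, TEK 0.47). Neutrophil genes S100A8 (-1.60) and S100A9 (-1.89) fell. Summed T and NK cell genes ran from 2.17 to 5.15 CPM at EL and from 4.16 to 13.4 at ML, and summed macrophage genes from 411 to 1258 CPM and from 701 to 1440 CPM. Of the lymphatic endothelial list, CCL21 itself was the only gene paired with a symbol. The part of cell content in the rise of CCL4, CCL21 and CXCL10 was not tested.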

How the data were processed

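Read-pair counts per gene in 96 libraries were used as deposited. For these counts the authors ran Trimmomatic, STAR against UMD_3.1 with Ensembl70 genes, and featureCounts on properly paired reads. The submitters' processing notes also name CASAVA 1.8 and edgeR. The TruSeq v2 kit does not mark strand. Tables of the whole series with 96 unnamed count columns were not used. Symbols came from 2221 identifier pairs in the study's supplement.

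CPM used TMM factors of edgeR 4.0.16 (R 4.3.3, limma 3.58.1), computed within each tissue. Time-points, tissues and genotypes were tested with edgeR's quasi-likelihood test on genes kept by filterByExpr, with cow as a block for time and tissue, two-sided, with Benjamini-Hochberg adjustment over all genes tested. Cow numbers in the titles pair the libraries. Residuals of the same cow correlated (median r 0.237 in liver with 39 of 48 pairs over 0.1, 0.258 in muscle with 42 of 48) and those of other cows did not (-0.019 in liver). Alternatives were DESeq2 1.42.0, RLE factors, no gene filter, no block and an exact test with one common dispersion. Others were 48 libraries in one fit with no block on cow, leaving out each cow, and leaving out 13 libraries. Those 13 carry counts on 19 genes near 0 elsewhere. How those genes came to be counted is not given in the sources used here. Permutation tests, correlations and plots used Python 3.11.15, numpy 2.4.6, pandas 2.3.3, scipy 1.17.1 and matplotlib 3.10.9. The fits were also run on simulated counts that held no cow effect, so that run cannot check the block on cow.

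The 4 genes and all lists were chosen with earlier results of these data known. Genes named beside them were the 3 most correlated per tissue, partner ligands and receptors, and other chemokine system genes past an adjusted p of 0.05. List and marker genes named with values were chosen after those were seen. Libraries of a group came from separate cows, and p-values of genotype comparisons measure the spread between cows. With cow as a block, those of time-point and tissue comparisons measure how differences within cows vary.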

Additional observations from a re-analysis of the deposited data

Results flagged for a closer look

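Within groups of 8 cows, the library farthest from the others was set against Dixon's 95% critical value of 0.526 for the gap as a share of the group's range. For normally distributed values, chance alone passes about 1 in 20 groups. Here 7 of 48 groups passed, but the shares were taken on CPM, for which that rate was not tested. The study named these genes from the same EL liver libraries, so groups passing there are not independent of that choice. Whether more groups passed than chance would give was therefore not tested. In EL liver of Fert- cows, cow 164 was highest for CCL3 (13.8 CPM, next 3.59, gap share 0.764) and for CCL4 (31.0 CPM, gap share 0.880), and cow 982 was highest for CXCL10 (44.1 CPM, gap share 0.727). In LP muscle of Fert+ cows, cow 3397 was highest for CXCL10 (6.36 CPM, 106 counts, gap share 0.758). The other 3 rest on 3 counts or fewer, namely CCL3 in LP muscle of Fert- cow 829 (0.528) and ML muscle of Fert+ cow 430 (0.627), and CCL4 in EL muscle of Fert+ cow 782 (0.678).

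The change over time differed between liver and muscle in a test of the difference itself for CCL4 from LP to EL (liver minus muscle 1.94 ± 0.60 on the log2 scale, edgeR adjusted p = 0.0104) and for CCL21 from EL to ML (1.20 ± 0.45, adjusted p = 0.0296). CCL4 in muscle had at most 8 counts in any library, and it passed the low-count filter of this joint fit only through liver.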

How the results depend on the processing

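Over 84 comparisons of the 4 chemokines, 23 of them called, 275 of 300 alternatives kept direction and side of the threshold, 6 lost a call, 9 gained one and 10 turned the sign of a value that was not called. Without the replicate block on cow, CCL4 in liver for ML vs EL was 0.33 (call lost), and signs turned for CXCL10 in muscle for ML vs LP (-0.10), CXCL10 in liver for ML vs EL by genotype (-0.068) and the liver minus muscle change for ML vs EL of CCL3 (-0.15) and CXCL10 (-0.055, also -0.016 under RLE scaling and -0.047 with no gene filter). The pairing by cow changed no other call. Without the 13 libraries, calls were lost in liver for CCL4 (0.64) and CCL21 (0.88) for ML vs EL and for CCL21 (0.74) and CXCL10 (0.91) for ML vs LP. Signs then turned in muscle for CCL21 for EL vs LP (0.062), ML vs LP (0.0022) and genotype at LP (0.15), and for CCL4 for ML vs LP (0.070, an alternative chosen after seeing the data, like all fits of CCL3 and CCL4 in muscle without a cow, the block or these libraries). Without a gene filter the CCL21 tissue difference for ML vs EL was 1.08 (call lost). CCL21 and CXCL10 in EL liver gave r = 0.73 without the 13 libraries (adjusted permutation p = 0.0300).

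Calls were gained by DESeq2 for CCL3 in liver for ML vs LP (0.83), by the 48-library fit for CCL3 in EL liver between genotypes (-1.57), and by the common dispersion test for CCL3, CCL4, CCL21 and CXCL10 in EL liver (-1.56, -1.02, -1.10 and -1.30), CXCL10 in ML liver (-1.36), CXCL10 in LP muscle (0.78) and CCL21 in EL muscle (-0.78). The cause was not tested.

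Leaving out each cow changed 32 of 656 fits. The ranges in liver were -0.046 to 0.34 for CCL4 and -0.25 to 0.070 for CCL21 in EL vs LP, 0.30 to 0.68 for CCL3 and 0.57 to 0.87 for CCL4 in ML vs EL, and 0.726 to 0.999 for CCL3, 0.75 to 0.93 for CCL4, 0.80 to 1.09 for CCL21 and 0.78 to 1.09 for CXCL10 in ML vs LP. In muscle they were -0.38 to 0.031 for CCL21 in EL vs LP, -0.30 to 0.044 for CCL21 and -0.38 to 0.29 for CCL3 in ML vs EL, -0.37 to 0.015 for CCL4 in ML vs LP, and for genotype -0.50 to 0.15 for CCL21 and -0.21 to 1.003 for CXCL10 at LP and -0.14 to 0.32 for CXCL10 at ML. CCL4 for ML vs EL in liver was lost without cow 426, 430, 756, 782, 829, 996 or 1000, and CXCL10 for ML vs LP without 419, 426, 430, 1000, 3445 or 3847. CCL3 for ML vs LP was called without 164, 756 or 782.

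Of all genes, the liver EL vs LP count of 332 became 193 without a gene filter, 895 with DESeq2 and 0 without the 13 libraries. For genotype at LP, EL and ML the common dispersion test gave 306, 301 and 279 (liver) and 214, 438 and 214 (muscle), DESeq2 gave 0, 12 and 77 (liver) and 27, 157 and 14 (muscle), and the 48-library fit gave 362 in EL liver and 564 in EL muscle. The 1 gene called in EL muscle was lost without the 13 libraries, and the 2 called in muscle for EL vs LP by genotype became 1 without the block or the filter. DESeq2 gave no adjusted p for CCL21 in EL muscle between genotypes. Counts near 0 limit CCL3 and CCL4 in muscle.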

Other observations

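Muscle held a further change outside the 4 chemokines. IL1B, an inflammatory cytokine, changed by -2.79 ± 0.32 on the log2 scale from LP to EL (edgeR adjusted p = 1.19e-08) and by 3.31 ± 0.32 from EL to ML (adjusted p = 1.48e-10), down and then up as was muscle CXCL10. Both identifiers with the symbol VCAM1, an endothelial adhesion molecule, also fell and then rose (-0.73 and -1.16, then 0.76 and 0.74), while ZFP36, which destabilises cytokine mRNA, went the other way (0.87, then -0.99). These genes were named after their values were seen. Hepatocyte transcripts were higher in ML muscle, where 4 of 5 tested rose from EL (ALB by 3.70 ± 0.77, beside 63.0% of all genes called), with their sum at most 153 CPM.

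In liver, the erythroid gene HBB was lower at ML than at EL (-1.41 ± 0.44, adjusted p = 0.0109) and than at LP (-1.47 ± 0.44, adjusted p = 0.0216). None of the adipocyte genes was called in liver by edgeR, and ADIPOQ in muscle changed by -0.92 from LP to EL and by 1.48 from EL to ML.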
